A study of Mus musculus with 25 samples.

Results

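The nuclear genome encodes most proteins of oxidative phosphorylation, and 98 such genes, on 19 chromosomes, were followed here among the 36528 gene identifiers of the study. They were taken by symbol: protein-coding genes beginning Nduf, Uqcr or Atp5, the succinate dehydrogenase genes Sdha to Sdhd, cytochrome c (Cycs), cytochrome c1 (Cyc1), and the numbered Cox genes of cytochrome c oxidase. By role they comprised 7 core and 32 accessory complex I subunits, 8 complex I assembly factors, 4 complex II, 9 complex III and 20 complex IV genes, 17 ATP synthase genes and cytochrome c, the single mobile carrier. The complex IV group included Ndufa4, which was named for complex I but belongs to complex IV, and its paralog Ndufa4l2. The rule used symbols only, but it was chosen with earlier results of these data known.

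Oxidative phosphorylation is the last stage of respiration. Complexes I and II take electrons from NADH and succinate, complex III and cytochrome c pass them on, and complex IV gives them to oxygen; the proton gradient that complexes I, III and IV build drives ATP synthase. A small part of the subunits is encoded in mitochondrial DNA and the rest, the genes described here, in the nucleus. Neurons are known for a high demand for respiratory ATP and astrocytes for a larger glycolytic output, though astrocytes carry the full respiratory chain.

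RNA was sequenced in bulk from cells sorted from the brains of mice aged 6 months. The 4 groups were NeuN+ neurons of non-transgenic littermates (8 libraries, called non-Tg here) and of mice with the hMAPT-P301S transgene, a human tau gene with a mutation that causes frontotemporal dementia (6 libraries, called P301S here), and Gfap+ astrocytes of non-Tg (6 libraries) and P301S mice (5 libraries). The labels name neither the promoter of the transgene nor whether a library came from 1 animal or a pool, and they do not tie neuron and astrocyte libraries to an animal, so p-values measure the spread between these libraries. The myeloid cells of the study were not analysed here.

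Libraries held 1245964 to 4453555 counts, so that 3 counts, the smallest number read as more than absence, equalled 0.674 to 2.41 CPM (counts per 1000000 counts, here before TMM scaling). The cell type labels were checked against marker genes. In non-Tg brains 12 of 15 neuron markers were higher and 16 of 16 astrocyte markers lower in neurons, and the summed neuron markers averaged 3046 CPM in neurons against 775 CPM in astrocytes. The counts were the same in P301S brains, where the neuron markers averaged 3072 CPM in neurons against 1123 CPM in astrocytes. Summed astrocyte markers averaged 550 and 668 CPM in non-Tg and P301S neurons, against 22572 and 21848 CPM in the astrocytes. All 7 tested of 9 oligodendrocyte markers were lower in neurons too, none of the 9 being at 0 in a whole group: they summed to 42.6 to 89.6 CPM in non-Tg and 69.7 to 82.1 CPM in P301S neurons, and to 215 to 541 CPM in non-Tg and 397 to 1309 CPM in P301S astrocytes. Of 4 tested of 8 endothelial and mural markers 3 were lower in neurons of each genotype, and in P301S brains 1 was higher in neurons (log2 2.11). The 8 markers summed to 7.77 to 16.4 CPM in non-Tg and 6.502 to 16.4 CPM in P301S neurons. In astrocytes they summed to 106 to 219 CPM in non-Tg and 74.6 to 211 CPM in P301S brains. Vtn was at 0 in P301S neurons and Cldn5 at 0 in P301S astrocytes. Microglial markers summed to means between 59.5 and 114 CPM in the 4 groups. Single libraries ranged from 13.7 to 141 CPM in non-Tg and 51.6 to 313 CPM in P301S neurons. In astrocytes they ranged from 31.4 to 83.0 CPM in non-Tg and 64.6 to 173 CPM in P301S brains. P301S astrocyte libraries stood apart in complexity: at an equal depth of 1000000 counts they detected 11968 to 16399.5 genes in expectation, against 15083 to 17871 in non-Tg astrocytes and at least 17538 in the neurons. The part of oligodendrocyte, microglial and endothelial or mural RNA and of library complexity in the results below was not tested. Nor was that of neuron RNA in astrocyte libraries or of astrocyte RNA in neuron libraries. The mouse Mapt gene does not check the transgene label, because the transgene is human.

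Promoters of these genes are known for binding sites of NRF1, of ETS factors such as GABP, and of YY1, so the RefSeq promoter windows (assembly GRCm38.p6, 250 bases before to 50 after a start) were searched on both strands for exact matches; 79 of the 98 genes had a window, 84 windows in all. The NRF1 letters, spelled out in capitals in the Ndufaf4 promoter below, were in 7 of 84 windows (8.33%), against 1.36% of the 20701 windows of all protein-coding genes. The ETS letters ccggaag were in 22.6% against 11.7%, and the YY1 letters aagatggcg in 9.52% against 1.88%. The Sp-factor letters gggcgg were about as frequent in both, 44.0% against 47.1%. A window can hold several of these motifs, and a match describes letters, not binding. The 2 promoters below carry the NRF1 letters and belong to genes called in opposite directions between the cell types of non-Tg brains. The Ndufaf4 call was near the threshold (edgeR adjusted p = 0.044) and was lost in several fits that left out a library. Capitals mark the NRF1 letters and, in Cox6a1 only, the ETS letters on the opposite strand. Each run is the 250 bases before the start, Ndufaf4 from chr4:24897833-24898082 (plus strand) and Cox6a1 from chr5:115348959-115349208 (minus strand).
Ndufaf4: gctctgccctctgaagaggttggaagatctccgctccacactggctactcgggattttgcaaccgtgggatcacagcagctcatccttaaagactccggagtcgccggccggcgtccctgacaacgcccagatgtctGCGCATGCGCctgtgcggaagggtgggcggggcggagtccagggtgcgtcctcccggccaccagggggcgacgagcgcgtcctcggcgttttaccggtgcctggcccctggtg
Cox6a1: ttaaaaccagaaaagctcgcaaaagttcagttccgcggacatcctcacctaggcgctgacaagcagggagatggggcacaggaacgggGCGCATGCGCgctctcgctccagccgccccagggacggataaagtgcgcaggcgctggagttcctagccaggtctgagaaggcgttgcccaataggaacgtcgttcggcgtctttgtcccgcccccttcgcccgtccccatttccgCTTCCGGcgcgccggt

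The respiratory genes were weakly represented in every library. Together the 98 genes took 0.0657% ± 0.0067 (SD, n = 8) of the counts of non-Tg neurons, 0.0635% ± 0.0080 (n = 6) of P301S neurons, 0.0844% ± 0.0121 (n = 6) of non-Tg astrocytes and 0.0945% ± 0.0203 (n = 5) of P301S astrocytes. On the normalised scale used for levels below (CPM with TMM factors from all 25 libraries) they summed to 591 ± 44.8, 564 ± 54.4, 915 ± 143 and 1221 ± 252 CPM. On this scale the summed level of every non-Tg astrocyte library, 696.1 CPM or more, lay above every neuron library, at most 658.9 CPM. By share of counts, without TMM factors, the groups overlapped. Non-Tg astrocyte library 5 held 0.0630%, below non-Tg neuron library 2 at 0.0806%. In such bulk libraries a smaller number of cells of a type and less RNA per cell cannot be told apart. The long nuclear RNA Malat1 alone took 23.1% and 32.9% of counts in non-Tg neurons and astrocytes, and the 13 mitochondrially encoded protein-coding genes took 1.06%, 1.44%, 3.82% and 7.39% in the 4 groups in the order above. The group means of the mitochondrially encoded share were thus spread over a wider range than those of the nuclear-encoded genes, and both were highest in P301S astrocytes.

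**Figure D1:**
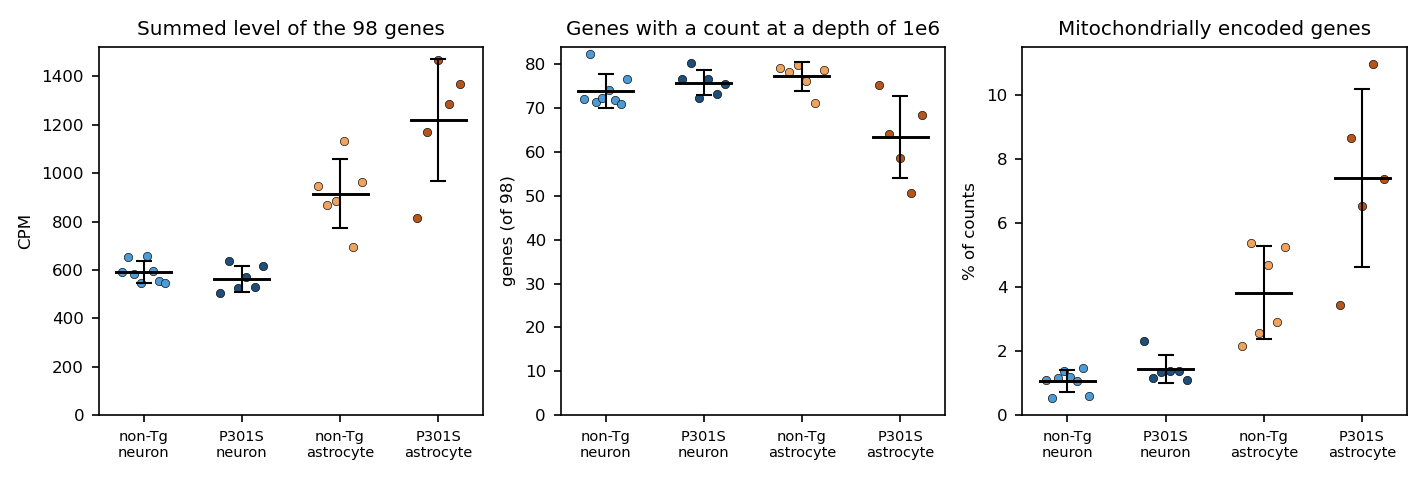
Summed level of the 98 genes in CPM (left), number of them expected to have a count at a depth of 1000000 (middle) and share of counts from the mitochondrially encoded genes in percent (right), 1 point per library with the group mean and SD. The P301S astrocyte mean is the highest on the left and right and the lowest in the middle; library 1 of that group, at 815 CPM, lies within the non-Tg astrocyte range in all 3 panels.

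The number of respiratory genes with at least 1 count was 75 to 91 in non-Tg neurons, 80 to 87 in P301S neurons, 80 to 90 in non-Tg astrocytes and 62 to 84 in P301S astrocytes. At an equal depth of 1000000 counts the expected numbers were 74.0 ± 3.86, 75.8 ± 2.86, 77.2 ± 3.21 and 63.4 ± 9.41. P301S astrocytes therefore had the highest mean summed level but the lowest mean number of genes with a count, as the plot of library totals shows. Their members also scattered most: among the genes with a mean of at least 5 CPM, the median coefficient of variation was 85.4% over 46 members in P301S astrocytes, 52.2% over 52 in non-Tg astrocytes, and 36.8% and 24.3% over 27 and 25 in non-Tg and P301S neurons. The same median over all genes was 78.1%, 42.7%, 29.9% and 23.9%. The labels' protocol gives a far smaller RNA yield for sorted astrocytes than for neurons, and the part of input amount in this scatter was not tested.

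Of the 98 genes, 62 were tested in at least 1 comparison and 36 in none. The untested genes never averaged more than 5.21 CPM in a group, and they included 12 complex I accessory subunits, 11 complex IV genes, 6 ATP synthase genes and cytochrome c itself. Their annotated transcript models were short, with a median of 533 bases against 1084 for the tested members and 3584 for all genes in the cell type comparison. Ndufb4c and Ndufa4l2 had no count in any library. Several genes of this family have a second copy used mainly in muscle, heart, lung or testis, and most of these copies had few counts here. Cox8b and Cox8c each had 1 count in all 25 libraries, Cox6a2 had 4, and Cox4i2, a hypoxia-responsive form, had 15 counts in 2 libraries, both of P301S astrocytes. Cox7a1 had 16 counts in 6 libraries and Cox7b2 had 26 in 14. Cox6b2 was not silent, with 59 counts in 12 libraries against 94 in 18 for Cox6b1, but neurons held almost none of these 59. Cox6b2 was at 0 to 0.227 CPM in non-Tg neurons and at 0 in every P301S neuron library. In astrocytes it was at 0.317 to 3.50 CPM in non-Tg and 0 to 4.22 CPM in P301S brains. The ubiquitous counterparts of Cox4i2 and Cox6a2, Cox4i1 and Cox6a1, had 457 and 321 counts and were seen in every library. The 3 genes of the ATP synthase c-subunit, which encode the same mature protein, were also unequal, with 873 counts for Atp5g3 and 33 and 20 for Atp5g2 and Atp5g1.

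Levels can be compared between genes only per length, for which the deposited normalised RPKM was used. In non-Tg neurons the highest mean RPKM belonged to Atp5g3 (3.74 ± 2.42, SD, n = 8), the complex I assembly factor Ndufaf4 (3.43 ± 1.61), the complex III core protein Uqcrc2 (3.36 ± 0.552) and the complex I core subunit Ndufv2 (3.10 ± 0.952). These 4 did not differ beyond their spread. In non-Tg astrocytes the ATP synthase catalytic subunit beta, Atp5b, led with an RPKM of 8.03 ± 2.72 (n = 6), followed by the alpha subunit Atp5a1 (4.37 ± 2.14), the largest complex I subunit Ndufs1 (4.01 ± 0.521) and the flavoprotein of complex II, Sdha (3.80 ± 0.846). The mitochondrially encoded complex I gene ND1 had an RPKM of 250.5 ± 81.6 in non-Tg neurons and 817 ± 275 in non-Tg astrocytes. In both groups this was far above every member. Not all mitochondrially encoded genes stood so high: ATP6 had an RPKM of 0.0878 ± 0.131 in non-Tg neurons and 0.251 ± 0.252 in non-Tg astrocytes. Subunits of 1 complex did not share 1 level: the plot of RPKM by role spans more than an order of magnitude within complex I and within ATP synthase.

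**Figure D2:**
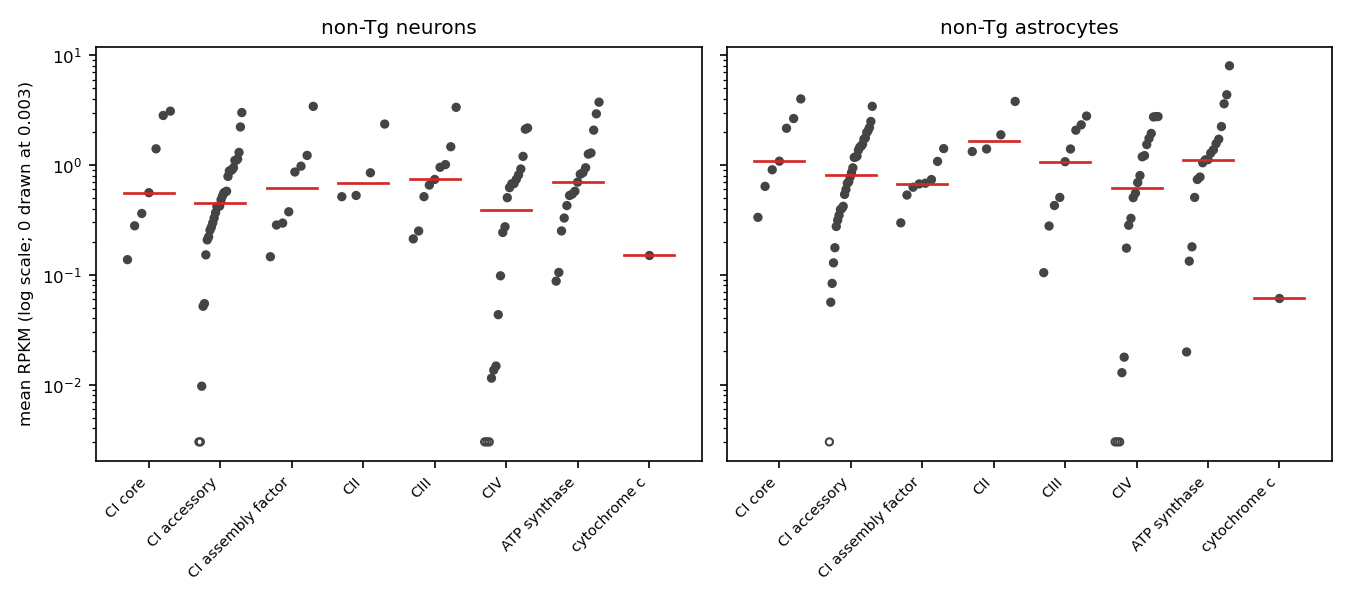
Mean RPKM of each of the 98 genes on a log axis, by role (CI to CIV, complexes I to IV), in non-Tg neurons (8 libraries) and non-Tg astrocytes (6 libraries); red lines are medians and open symbols are genes at 0. Atp5b in astrocytes, at 8.03, is the highest point, and those tissue-specific complex IV copies that were nearly silent lie at the bottom.

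The first comparison asked how neurons and astrocytes of non-Tg brains differed. Neurons had lower levels of many respiratory genes. Among 57 members tested with edgeR's quasi-likelihood test, 20 were lower in neurons at an adjusted p below 0.05 and 1 was higher. Over all 14197 genes tested, 25.1% were lower and 21.8% higher. The log2 difference, neurons minus astrocytes, was below 0 for 44 members and above 0 for 13, with a median of -0.73 for members and -0.11 for all genes. With RLE in place of TMM scaling the all-gene median moved to 0.08 and the members' median to -0.53, so the members lay 0.62 and 0.61 below the median gene; 16 members were then above 0. That scaling also turned the balance of all calls, of which 46.5% were higher in neurons with TMM and 53.6% with RLE. The libraries of the groups did not overlap for 7 tested members, all lower in neurons, where 15.4% of genes were lower without overlap.

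By role, the lower members were 4 of 4 complex II genes, 9 of 23 tested complex I subunits, 3 of 10 ATP synthase genes, 3 of 8 complex IV genes and 1 of 6 complex III genes. Of 6 complex I assembly factors none was lower and 1 was higher. The gene-by-gene plot of both cell type comparisons shows these groups in order.

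**Figure D3:**
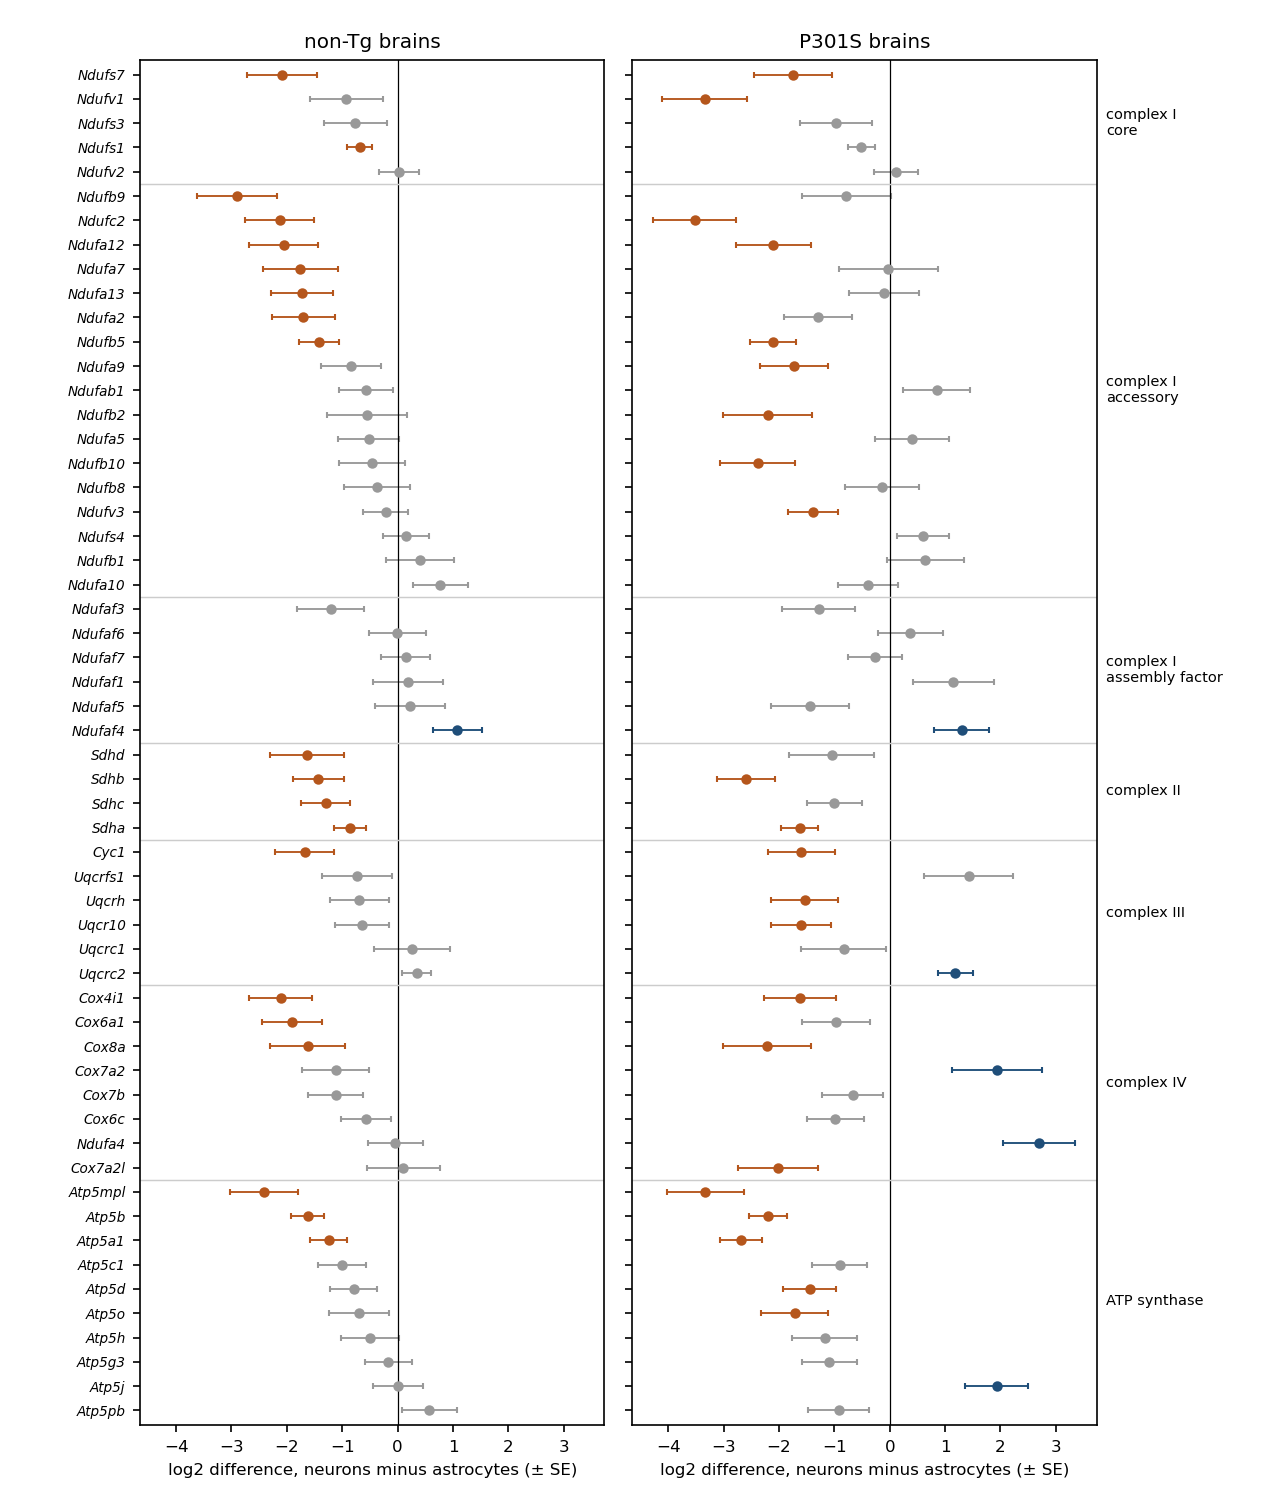
Log2 difference, neurons minus astrocytes, with its SE, for 56 of the 57 tested members by role in non-Tg (left) and P301S (right) brains; orange points were lower and blue points higher in neurons at an adjusted p below 0.05, and grey points did not pass. In non-Tg brains 20 points are orange and 1, Ndufaf4, is blue; in P301S brains 22 are orange and 5 blue.

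Of the tested members Atp5b, of the catalytic head of ATP synthase, had the smallest adjusted p. Atp5b (RefSeq GRCm38.p6, chr10:128083307-128090388) ranged from 18.3 CPM over a median of 31.3 to 47.4 in non-Tg neurons, and from 74.5 over 80.6 to 162 in non-Tg astrocytes. The groups did not overlap, and neurons were 3.09-fold lower (log2 -1.63 ± 0.30 SE, adjusted p = 2.47e-05). Its partner Atp5a1 ran from 22.8 over 27.5 to 34.9 CPM in neurons and from 15.5 over 65.6 to 110.4 in astrocytes. Here 1 astrocyte library fell below the neurons, and the difference was log2 -1.25 ± 0.33 (adjusted p = 0.00189). Atp5a1 overlaps Haus1 in the annotation, and whether counting used strand is not stated in the labels, so its reads may be shared. The small subunit Atp5mpl was at 0 to 1.66 CPM in neurons and 3.50 to 10.4 CPM in astrocytes (log2 -2.41 ± 0.62, adjusted p = 0.00149). Atp5j and Atp5g3, parts of the stalk and of the rotor ring, had log2 differences of 0.01 and -0.17 that did not pass the test (adjusted p = 0.986 and 0.787).

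All 4 genes of complex II, which is also an enzyme of the citric acid cycle, were lower in neurons. Sdha (chr13:74322255-74350240) ranged from 25.1 over 37.1 to 48.7 CPM in non-Tg neurons and from 42.9 over 69.1 to 83.7 in astrocytes. The ranges overlapped at their edges, and the difference was log2 -0.86 ± 0.29 (adjusted p = 0.0143). It missed the threshold with RLE scaling (adjusted p = 0.0548), with DESeq2 (0.0552) and without the 2 non-Tg neuron libraries whose identifiers come from another range (0.0512). The iron-sulfur subunit Sdhb was at 1.90 to 4.95 CPM in neurons and 5.54 to 17.7 CPM in astrocytes, without overlap (log2 -1.43 ± 0.46, adjusted p = 0.0107). The membrane anchors Sdhc and Sdhd had log2 differences of -1.302 ± 0.44 and -1.63 ± 0.67; Sdhc did not overlap between groups, whereas the call for Sdhd, at an adjusted p of 0.0444, was lost without any 1 of 15 libraries (adjusted p up to 0.172, without non-Tg astrocyte library 4).

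In complex I, Ndufs1 (chr1:63143592-63176822), which carries iron-sulfur clusters of the electron input arm, had little spread. It ran from 41.0 over 47.4 to 51.6 CPM in non-Tg neurons and from 63.2 over 75.9 to 88.6 in astrocytes. There was no overlap, and although the fold was only 1.61 the difference passed (log2 -0.69 ± 0.22, adjusted p = 0.0107); with RLE scaling it did not (log2 -0.49, adjusted p = 0.0767), nor without a filter on low counts (adjusted p = 0.0655). Ndufs7, the core subunit nearest the quinone site, was low in both cell types, 0 to 4.11 CPM in neurons and 3.01 to 13.8 in astrocytes (log2 -2.09 ± 0.64, adjusted p = 0.00684). The core subunits Ndufv1, Ndufs3 and Ndufv2 did not pass, with log2 differences from -0.93 to 0.03.

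Among the accessory subunits of complex I, Ndufb5 ranged from 2.67 over 4.76 to 9.24 CPM in non-Tg neurons and from 10.1 over 12.04 to 20.8 in astrocytes. These ranges did not overlap (log2 -1.42 ± 0.37, adjusted p = 0.00167). Ndufc2 and Ndufb9, both of the membrane arm, differed by log2 -2.13 ± 0.62 and -2.90 ± 0.73 (adjusted p = 0.00497 and 0.0012). Ndufa12, Ndufa13, Ndufa2 and Ndufa7 were lower by log2 -2.06 to -1.70. Of these, Ndufa13 lost its call without non-Tg astrocyte library 5 (log2 -1.15, adjusted p = 0.0906), Ndufa2 without library 4 of that group (log2 -1.35, adjusted p = 0.0532), and Ndufa7 without any 1 of 5 non-Tg neuron libraries (adjusted p up to 0.0694). The remaining 10 tested accessory subunits, among them Ndufs4 (log2 0.15) and Ndufa10 (log2 0.77), did not pass.

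In complex III, Cyc1, the heme protein that hands electrons to cytochrome c, ran from 2.22 over 5.57 to 12.01 CPM in non-Tg neurons and from 4.01 over 17.6 to 51.7 in astrocytes (log2 -1.68 ± 0.54, adjusted p = 0.0101). The highest astrocyte library decided the call, since without non-Tg astrocyte library 4 the difference was -1.19 with an adjusted p of 0.0721. The core protein gene Uqcrc2, at a median of 35.04 CPM in neurons and 25.3 in astrocytes, did not pass (log2 0.34, adjusted p = 0.321). In complex IV, Cox4i1, the subunit through which ATP slows the enzyme, was at 0.711 to 6.35 CPM in neurons and 7.02 to 20.7 in astrocytes, without overlap (log2 -2.11 ± 0.57, adjusted p = 0.00246). Cox6a1, whose promoter is shown above, was at 0.555 to 4.53 and 2.63 to 13.8 CPM (log2 -1.91 ± 0.55, adjusted p = 0.0041). Cox8a stood at the threshold (adjusted p = 0.0491) and lost its call without any 1 of 18 libraries (adjusted p up to 0.122).

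Ndufaf4 (chr4:24898083-24905001), an assembly factor that helps build the arm of complex I near the quinone site, was the only called member with higher levels in neurons. It ranged from 19.8 over 66.9 to 117.9 CPM in non-Tg neurons and from 8.17 over 31.7 to 57.4 in astrocytes, with overlap (log2 1.08 ± 0.44, adjusted p = 0.044). The call was lost without any of the non-Tg neuron libraries 1, 3, 5 or 6 or the non-Tg astrocyte libraries 2, 4 or 5, with an adjusted p of 0.0517 to 0.105. The gene overlaps the annotated gene Gm46848. The other 5 tested assembly factors had log2 differences from -1.21 (Ndufaf3) to 0.22 (Ndufaf5).

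The same comparison in P301S brains shares no library with the first. It called 23 of 57 members lower in neurons, against 29% of all genes, and 5 higher, against 23.2%. The median log2 difference was -1.05 for members and -0.21 for all genes, and again 44 members were below 0. By role, the lower members were 10 of 23 complex I subunits, 5 of 10 ATP synthase genes, 2 of 4 complex II genes, 3 of 6 complex III genes and 3 of 8 complex IV genes. The groups did not overlap for 3 members higher in neurons and 4 lower, against 17% and 12.7% of genes. Of the members lower in either genotype 12 were lower in both, which is 60% of the 20 called in non-Tg and 52.2% of the 23 called in P301S brains; they were Atp5a1, Atp5b, Atp5mpl, Sdha, Sdhb, Ndufs7, Ndufa12, Ndufb5, Ndufc2, Cyc1, Cox4i1 and Cox8a. Both comparisons used 1 estimate of spread from all 25 libraries. When only the P301S libraries entered the fit, 12 members were lower and 2 higher, and with limma-voom's library weights 8 and 2.

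Single P301S astrocyte libraries carried several of these calls. Of the 28 calls 15 held without any single library, among them Atp5a1, Atp5b, Ndufb5, Sdha and Sdhb. Without P301S astrocyte library 3, Ndufa9 went from log2 -1.73 to -0.42, Cox8a from -2.22 to -0.77 and Atp5o from -1.72 to -0.93, and none of them passed. Without library 2 of that group, Ndufb2 went from -2.21 to -0.09, Cox4i1 from -1.62 to -0.34 and Cox7a2l from -2.01 to -0.66, and without library 5 Ndufb10 went from -2.39 to -0.62. Ndufc2 and Ndufv1 kept their calls without library 3 but fell from -3.52 to -1.91 and from -3.34 to -1.81. Without library 4 Uqcr10 went from -1.60 to -1.15 (adjusted p = 0.0689), and 5 to 7 libraries each could end those of Cyc1, Ndufs7, Uqcrh, Cox7a2 and Ndufaf4.

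The 9 calls that held in every alternative included Atp5a1 and Atp5b, Sdha and Sdhb, and Ndufb5. Atp5a1 ranged from 17.9 over 27.3 to 34.2 CPM in P301S neurons, and the 5 P301S astrocyte libraries held 80.8, 163, 232, 349.6 and 73.3 CPM. All astrocyte libraries lay above all neurons (log2 -2.68 ± 0.38, adjusted p = 4.47e-07). Atp5b ran from 23.7 over 27.4 to 33.9 CPM in P301S neurons, against 52.4, 99.5, 55.3, 185 and 243 CPM in the astrocyte libraries, also without overlap (log2 -2.19 ± 0.34, adjusted p = 2.19e-06). Sdha was at 25.9 over 38.2 to 45.4 CPM in neurons and at 34.9, 196, 103, 56.6 and 177 CPM in astrocytes, where the lowest library reached into the neuron range (log2 -1.63 ± 0.33, adjusted p = 0.000107). For Sdhb the neurons held 2.82 over 4.33 to 6.18 CPM and the astrocytes 18.9, 26.5, 68.4, 4.53 and 16.1 CPM. All but 1 of these astrocyte libraries were above every neuron library (log2 -2.59 ± 0.52, adjusted p = 8.97e-05).

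In complex I of P301S brains, the accessory subunit Ndufb5 ran from 3.87 over 7.30 to 7.64 CPM in neurons and stood at 33.2, 10.4, 31.8, 28.7 and 36.7 CPM in astrocytes, with no overlap (log2 -2.11 ± 0.41, adjusted p = 6.20e-05). Ndufv3, an accessory subunit of the NADH-oxidising tip, was also separate, at 7.64 to 14.0 against 16.9 to 48.9 CPM (log2 -1.38 ± 0.45, adjusted p = 0.0112); with voom it did not pass (adjusted p = 0.0779). Ndufs1 did not pass here (log2 -0.51, adjusted p = 0.0871).

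The 5 members higher in P301S neurons than in P301S astrocytes were Uqcrc2, Ndufa4, Atp5j, Cox7a2 and Ndufaf4. Uqcrc2 (chr7:120635189-120659523) was even in P301S neurons, from 34.2 over 35.7 to 37.2 CPM, and stood at 14.4, 21.1, 10.8, 16.6 and 15.3 CPM in the astrocytes. The groups were fully separate (log2 1.19 ± 0.31, adjusted p = 0.00177), and the gene overlaps Pdzd9. Ndufa4 (chr6:11900372-11907450) ran from 9.42 over 12.7 to 23.1 CPM in P301S neurons and stood at 3.10, 1.57, 0, 6.80 and 0 CPM in the astrocytes (log2 2.70 ± 0.66, adjusted p = 0.000878). Atp5j ran from 2.26 over 4.44 to 6.07 CPM in neurons and stood at 1.41, 0.315, 1.49, 0.755 and 1.496 CPM in astrocytes, again without overlap (log2 1.93 ± 0.57, adjusted p = 0.00517), although not past the threshold with voom (adjusted p = 0.13). The astrocyte levels rested on 1 to 5 counts per library for Atp5j and on 0 to 11 for Ndufa4. Cox7a2 was at 0 in 3 of the 5 P301S astrocyte libraries and at 1.13 and 1.58 CPM in the other two, against 0.968 to 4.49 CPM in P301S neurons (log2 1.93 ± 0.81, adjusted p = 0.0442).

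**Figure D4:**
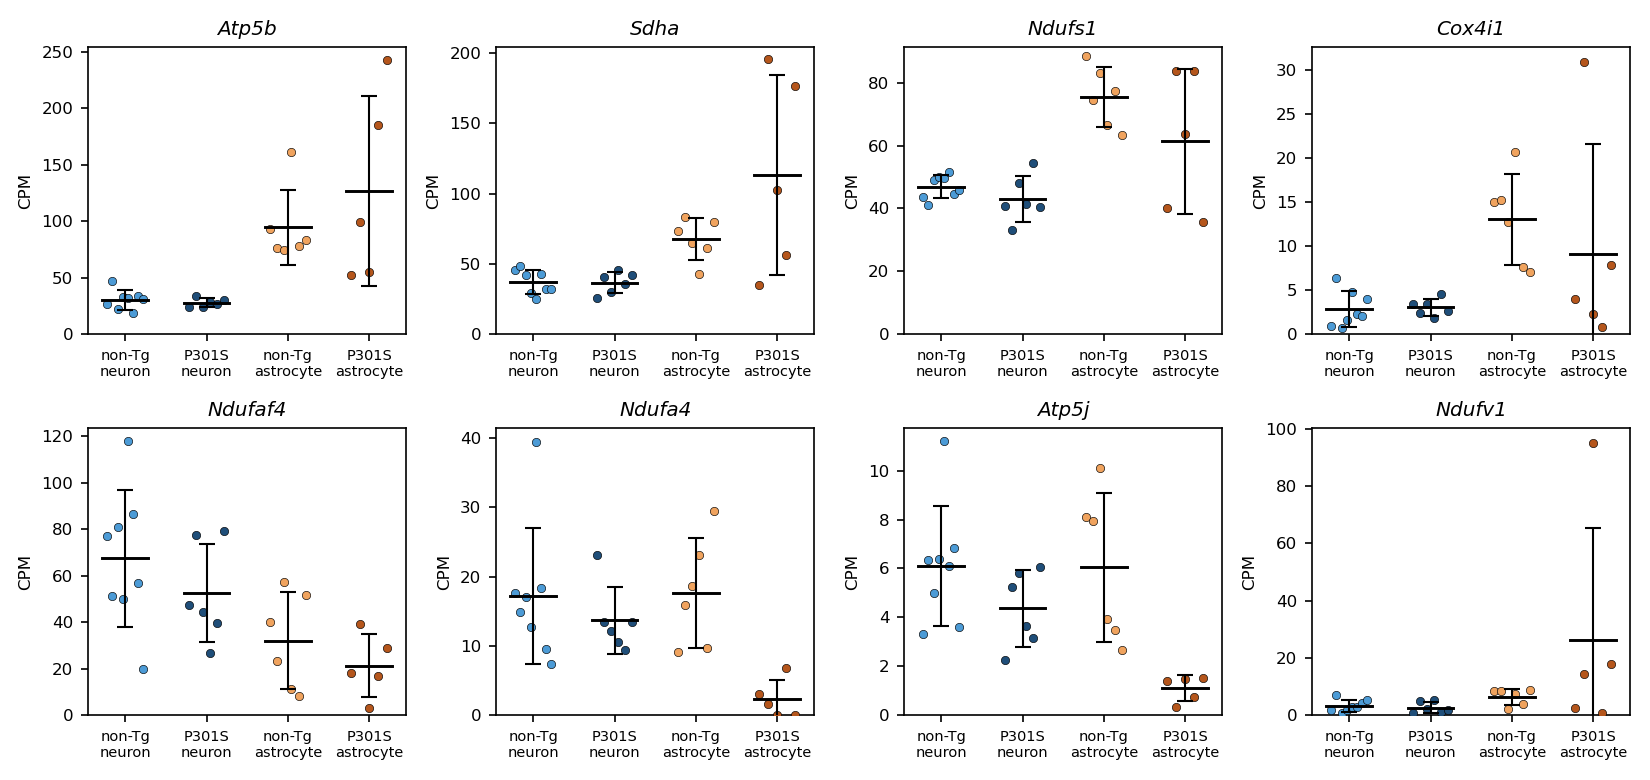
Level in CPM of 8 members in every library, with the group mean and SD, on linear axes that differ between panels. Atp5b is higher in both astrocyte groups than in either neuron group, Ndufaf4 leans the other way with overlap, Ndufa4 and Atp5j are lowest in P301S astrocytes, and 1 P301S astrocyte library of 94.9 CPM sets the mean of Ndufv1.

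The second question was whether the P301S transgene went with other levels of respiratory genes within a cell type. In neurons it did not detectably: of 31 members tested by edgeR none was called, against 0.00913% of the 10951 genes called higher and 0% lower. The genotype comparisons use the same libraries as the cell type comparisons. The median log2 difference, P301S minus non-Tg, was -0.04 for members and -0.02 for all genes, and 1 member had an unadjusted p below 0.05, where 3.04% of genes were higher and 4.68% lower at that level. The libraries of the genotypes overlapped for every tested member, while 0.119% of genes were higher and 0.0913% lower without overlap. No other tool or setting called a member here, DESeq2 and voom included. That member was Atp5g3, which ran from 6.90 over 13.1 to 36.8 CPM in non-Tg neurons and from 4.94 over 7.57 to 12.6 CPM in P301S neurons. The groups overlapped widely (log2 -0.97 ± 0.34, adjusted p = 0.477), and without non-Tg neuron library 5, the highest, the difference was -0.62. All other tested members lay between -0.58 (Atp5pb) and 0.42 (Ndufb5). The abundant ones had narrow errors: Atp5a1 differed by -0.02 ± 0.17, Ndufs1 by -0.13 ± 0.14, Sdha by -0.02 ± 0.17 and Uqcrc2 by 0.03 ± 0.14 on the log2 scale.

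In astrocytes none of 59 tested members was called, where 0.519% of 12130 genes were called higher in P301S and 0.0247% lower. The median log2 difference was 0.23 for members and 0.13 for all genes, with 34 members above 0 and 25 below, and 9 members had an unadjusted p below 0.05, against 9.34% of genes higher and 4.09% lower at that level. The count depended on the tool: DESeq2 called 3 members lower and none higher, and a fit that took its spread from all 25 libraries called 5 lower and 3 higher, among them, beside the genes below, Uqcrfs1 and Ndufab1 (both lower). The plot of genotype differences shows how much wider the errors were in astrocytes than in neurons.

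**Figure D5:**
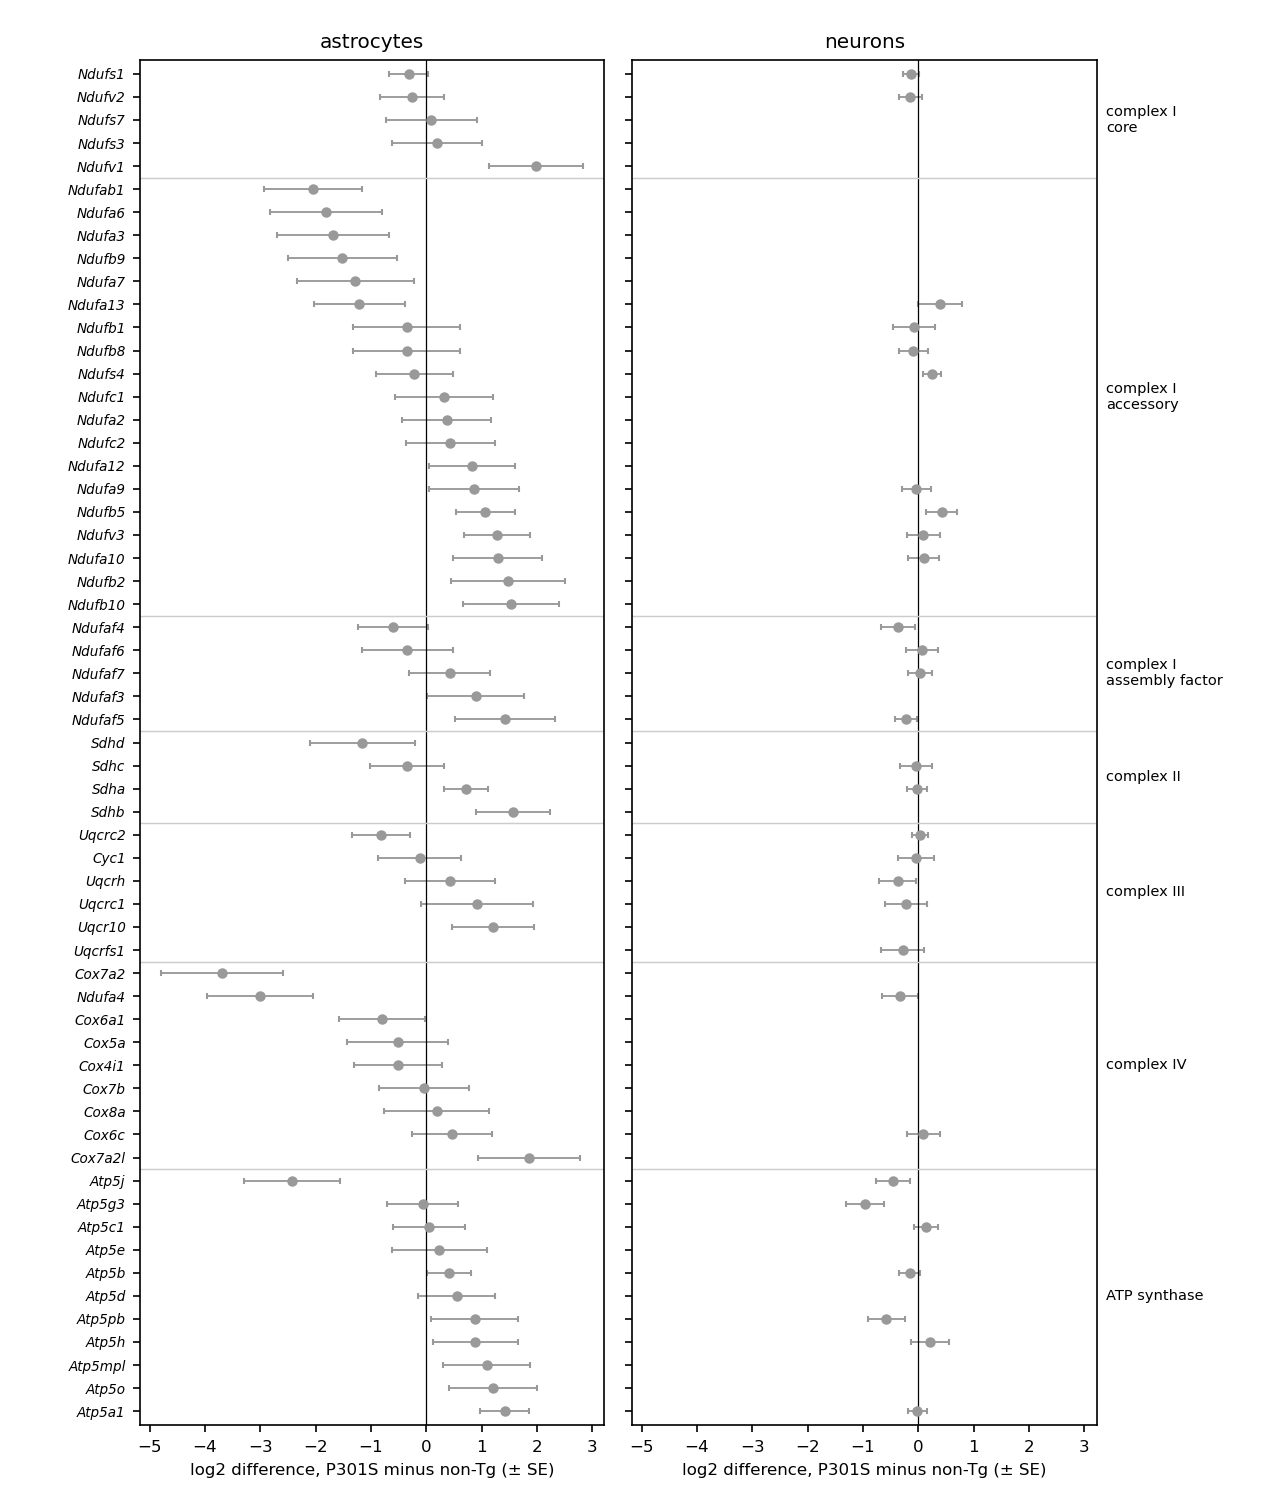
Log2 difference, P301S minus non-Tg, with its SE, for 58 of the 59 members tested in astrocytes (left) and 30 of the 31 tested in neurons (right), by role; gaps are members not tested in neurons, and no point passed an adjusted p of 0.05. Astrocyte points spread from -3.69 (Cox7a2) to 1.99 (Ndufv1), neuron points from -0.97 (Atp5g3) to 0.42 (Ndufb5).

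The smallest p-values among the lower members belonged to 3 small subunits. Cox7a2 ranged from 0.649 over 8.93 to 13.7 CPM in non-Tg astrocytes, against the P301S levels of 0 to 1.58 CPM given above (log2 -3.69 ± 1.10, adjusted p = 0.133). Only the lowest non-Tg library overlapped the P301S libraries. Ndufa4 ran from 9.08 over 17.2 to 29.4 CPM in non-Tg astrocytes and reached at most 6.80 CPM in P301S astrocytes, so that the groups did not overlap (log2 -3.004 ± 0.97, adjusted p = 0.165). Atp5j ran from 2.68 over 5.93 to 10.1 CPM and reached at most 1.496 CPM in P301S astrocytes, also without overlap (log2 -2.42 ± 0.86, adjusted p = 0.205). Of all tested genes 0.907% were lower and 1.24% higher without overlap, and no member was higher without overlap. DESeq2 gave these 3 genes adjusted p-values of 0.0163, 0.0159 and 0.0383, and the fit over all 25 libraries 0.00498, 0.00412 and 0.00759. Cox7a2 overlaps Tmem30a, and Atp5j overlaps Gabpa, which encodes a subunit of the ETS factor GABP.

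On the higher side stood Atp5a1 and Sdhb. Atp5a1 had a median of 65.6 CPM in non-Tg and 163 in P301S astrocytes, with overlapping libraries (log2 1.42 ± 0.45, adjusted p = 0.157). Sdhb had log2 1.57 ± 0.66 (adjusted p = 0.301) and 0.88 without P301S astrocyte library 3. These genes passed in the fit over all 25 libraries (adjusted p = 0.0113 and 0.0326), and Atp5a1 also with no filter on low counts (0.0126). With the number of detected genes as a covariate no gene was called and the 5 members described here had an adjusted p of 0.996.

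Whether the genotype difference itself differed between astrocytes and neurons was tested as an interaction in all 25 libraries. None of 57 members was called, against 0.204% of genes in which the astrocyte difference was the higher one and 0.19% in which it was the lower one; 10 members had an unadjusted p below 0.05, against 7.83% and 7% of genes in these directions. The nearest was Ndufa4 (log2 -2.74, adjusted p = 0.0928), which passed with DESeq2 (adjusted p = 0.0191) and without P301S astrocyte library 4 (log2 -3.40, adjusted p = 0.0305). Cox7a2 had log2 -3.05 (adjusted p = 0.132), Atp5j -1.92 (0.185) and Atp5a1 1.44 (0.147). Ndufv1 and Cox7a2l, at 2.42 and 2.12, went to 0.89 and 0.77 without P301S astrocyte libraries 3 and 2. The assembly factor Ndufaf1 passed only without P301S astrocyte library 1 (log2 -3.41, adjusted p = 0.0314). By the edgeR test over all libraries the genotype results of the cell types are thus not shown to differ for any member.

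Related gene groups were read beside the members with the same tests. Of the 13 mitochondrially encoded genes 7 were tested, and the rest did not pass the filter on low counts. All 7 were lower in neurons in both genotypes, with median log2 differences of -2.19 in non-Tg and -2.96 in P301S brains. Over all genes tested, 25.1% were lower in non-Tg and 29% in P301S neurons. ND4, a core subunit of complex I, averaged 1143 CPM in non-Tg neurons, 5920.1 in non-Tg astrocytes and 17597 in P301S astrocytes. It was the 1 mitochondrially encoded gene called higher in P301S than in non-Tg astrocytes (log2 1.56 ± 0.35, adjusted p = 0.0409), where 0.519% of all tested genes were called higher. The other 6 tested had values above 0 too. The nuclear-encoded members, at a median of 0.23 in that comparison, did not share this size of difference by value; the difference between the groups of genes was not tested.

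The counts of the next 6 groups stand beside 25.1% of all tested genes lower and 21.8% higher in non-Tg neurons. Of 15 tested genes of the citric acid cycle and pyruvate dehydrogenase, 4 were lower in non-Tg neurons and none higher, among them citrate synthase, Cs (log2 -1.81 ± 0.41, adjusted p = 0.000445). Of 28 tested assembly factors outside the chosen symbols, 2 were lower and 1, Lrpprc, which stabilises mitochondrial messenger RNA, was higher (log2 0.90 ± 0.25, adjusted p = 0.0038). Among 12 tested regulators of mitochondrial biogenesis, the coactivator gene Ppargc1a was lower in non-Tg neurons (log2 -1.76 ± 0.16, adjusted p = 8.94e-11) and its relative Ppargc1b higher (log2 2.86 ± 0.62, adjusted p = 0.000229). Nrf1, whose protein recognises the letters marked in the promoters above, was lower (log2 -1.35 ± 0.28, adjusted p = 0.000141). Of 48 tested genes of the mitochondrial ribosome 4 were lower and 1 higher, and of 24 of the cytosolic ribosome 3 were lower and 1 higher. Of 12 tested genes of mitochondrial import and carriers 3 were lower and 1, the receptor gene Tomm70a, was higher (log2 1.12). In P301S brains the counts lower and higher were 4 and 0 for the citric acid cycle, 3 and 4 for assembly factors, 3 and 3 for regulators, 12 and 4 for the mitochondrial ribosome, 5 and 3 for the cytosolic ribosome and 1 and 0 for import. Over all tested genes 29% were lower and 23.2% higher in P301S neurons. In both genotypes the called shares of these 6 groups were near or below those of all genes. None of the genes in these 6 groups was called between genotypes in either cell type. Of all genes 0.519% were called higher and 0.0247% lower in P301S astrocytes, and 0.00913% higher and 0% lower in P301S neurons.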

How the data were processed

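The deposited table of each library holds raw counts per Entrez gene and a normalised RPKM for the same genes; the submitters' processing notes list GSNAP and GRCm38, and for the annotation, strand setting and multiply aligned reads nothing is given in the sources used here. The deposited RPKM equals the count times 1 factor per library and 1 per gene. Symbols, coordinates and promoters came from RefSeq (31049 of 36528 identifiers matched; the other 5479 held 3.30% of counts and stayed in the fits). The members and lists were chosen with earlier results of these data known.

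Counts were tested with edgeR 4.0.16 (R 4.3.3; TMM, filterByExpr, robust quasi-likelihood, Benjamini-Hochberg over all genes). Genotype was fitted within each cell type; cell type and interaction were fitted over all 25 libraries with 1 mean per group. Levels are CPM with TMM factors. Alternatives were DESeq2 1.42.0, limma-voom 3.58.1 with quality weights, RLE factors, no filter or 1 CPM, leaving out Malat1 with the mitochondrially encoded genes, leaving out 2 libraries (non-Tg neurons) with a different range of sample identifiers, the number of detected genes as a covariate, the sample set, and each library in turn. The script was tested on simulated data. Named genes were the catalytic and carrier genes, the tissue isoforms, up to 8 called members per comparison and direction with the smallest p (3 where fewer were called), the 5 highest per length, and up to 4 per other list; further names were chosen after their values were seen. Of the members 28 overlap another annotated gene, and 7 pseudogenes with like names are in the files, so reads may be shared. The floors of 3 counts cover counting error only, while SDs and SEs reflect the spread between libraries. A few results are not reported here.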

Additional observations from a re-analysis of the deposited data

Results flagged for a closer look

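For 19 members and the summed share, each group was examined for a library that stood apart by Dixon's criterion, 80 groups in all. Chance flags about 1 in 20 for normally distributed values, which CPM of genes with few counts need not be. There were 11 flagged values, and their number is not set against that rate. In P301S astrocytes, library 3 was highest for Ndufv1 (94.9 CPM, the next 18.0) and Ndufc2 (74.0 CPM, the next 9.72), and library 2 for Cox4i1 (30.9 CPM, the next 7.85) and Cox7a2l (50.4 CPM, the next 14.1). In non-Tg neurons, library 5 was highest for Atp5g3 (36.8 CPM, the next 15.8), Ndufa4 (39.5 CPM, the next 18.3) and Atp5j (11.2 CPM, the next 6.85). That library is 1 of the 2 with identifiers from another range. Non-Tg neuron library 2 had the highest share of counts from the 98 genes, 0.0806%, the next being 0.0675%. In non-Tg astrocytes, library 4 was highest for Atp5b (162 CPM, the next 93.1) and library 1 for Ndufb5 (20.8 CPM, the next 13.8). In P301S neurons, library 1 was highest for Ndufa4 (23.1 CPM, the next 13.4). Each of these libraries was the highest of its group, none the lowest, and the cause was not tested.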

How the results depend on the processing

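None of the called members changed direction in an alternative that was run, while RLE scaling moved the non-Tg median of all genes from -0.11 to 0.08 and the members above 0 from 13 to 16. No paired analysis was possible because the labels give no replicate numbers and do not tie libraries to animals. Members called higher in non-Tg neurons than astrocytes numbered 1, with 2 by DESeq2, 0 without the 2 libraries of another identifier range and 0 to 2 without single libraries; 15 to 21 were lower without single libraries. In P301S brains, the 5 higher became 2 with voom, 2 with only the compared groups, 8 with the 1 CPM filter and 3 to 6 without single libraries, and the 23 lower became 8 with voom and 12 with only the compared groups, which called 4925 genes in all against 7420. For genotype in astrocytes, members called lower numbered 3 by DESeq2 and 5 over all 25 libraries, and higher 1 without a filter and 3 over all 25. All genes called there numbered 66, and 548 by DESeq2, 124 by voom, 561 without a filter, 1682 over all 25 libraries, 0 with the covariate and 27 to 136 without single libraries. In neurons 1 gene was called, and 36 by DESeq2, 41 by voom, 17 without a filter, 10 with the 1 CPM filter, 38 without the other identifier range, 7 with the covariate and 0 to 23 without single libraries. The interaction called 56 genes, and 469 by DESeq2, 10 by voom, 12 without the other identifier range and 9 to 522 without single libraries; 1 member was called by DESeq2 and 0 to 1 without single libraries (Ndufa4 without P301S astrocyte library 4, Ndufaf1 without library 1). Of the single-member results, 12 of 21 calls held in every alternative in non-Tg and 9 of 28 in P301S brains. Depth limited the genes with few counts: 36 members were not tested.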
